A study of Mus musculus with 18 samples.

Results

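*Sema6a*, *Adgrl2*, *Frmd4b*, *Eif4g3* and *Sox4* were 5 genes whose array signal was lower in *Dnmt1*-/- and triple knockout embryonic stem cells (ESCs) than in wild-type ESCs, and they were chosen by the day 0 log2 signal of the 6 ESC arrays. They make up 5 of the 19938 genes that have a probe set of their own on the array, and 12 of its 35512 probe sets, since *Adgrl2* has 8 of them. The signal was measured on 18 microarrays of J1 (129Sv/Jae) mouse ESCs and of the embryoid bodies (EBs) grown from them in hanging drops. The 9 groups were *Dnmt1*-/- ESCs (day 0) and their EBs at day 4 and day 16, TKO ESCs, which lack *Dnmt1*, *Dnmt3a* and *Dnmt3b* together, and their EBs at the same days, and wt ESCs with theirs. Each group had 2 arrays, labelled biological replicates 1 and 2, so every p measures only the spread between these cultures of 1 line per genotype, and a difference between genotypes cannot be told apart from one between the lines. Values are log2 signal per probe set, on which 1 unit is a 2-fold difference. An EB holds many cell types, and fewer cells of a type and less RNA per cell cannot be told apart in such bulk RNA.

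The genes act at different levels of the cell. *Sema6a* encodes a transmembrane semaphorin, a guidance ligand that binds plexin receptors on neighbouring cells and is best known from axon pathfinding. *Adgrl2* encodes latrophilin 2, an adhesion G protein-coupled receptor that binds teneurins and FLRT proteins across cell contacts. *Frmd4b* encodes a FERM domain scaffold that binds cytohesins, the exchange factors of Arf GTPases, and Par polarity proteins at epithelial junctions. *Eif4g3* encodes a scaffold subunit of eIF4F, the complex that recruits ribosomes to capped mRNA. *Sox4* encodes an HMG-box transcription factor of the SoxC family, active in neural, cardiac and other progenitors. *Dnmt1* copies methylation of the CG dinucleotide onto newly made DNA, whereas *Dnmt3a* and *Dnmt3b* set it anew.

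The CG dinucleotide is what these enzymes act on, so the bases ahead of the members' annotated starts are shown with every CG in capitals. They are 250 bases long and come from RefSeq's table of promoters on GRCm38.p6, which gave a window for 4 of the 5 members. Where a gene had several windows, the one with the first start is printed.
Adgrl2, chr3:148954636-148954885, minus strand: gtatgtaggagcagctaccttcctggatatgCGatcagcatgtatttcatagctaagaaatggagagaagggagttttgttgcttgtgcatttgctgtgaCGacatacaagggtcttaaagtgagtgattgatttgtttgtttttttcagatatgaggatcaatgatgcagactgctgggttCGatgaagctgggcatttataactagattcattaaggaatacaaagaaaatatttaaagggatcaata
Frmd4b, chr6:97617658-97617907, minus strand: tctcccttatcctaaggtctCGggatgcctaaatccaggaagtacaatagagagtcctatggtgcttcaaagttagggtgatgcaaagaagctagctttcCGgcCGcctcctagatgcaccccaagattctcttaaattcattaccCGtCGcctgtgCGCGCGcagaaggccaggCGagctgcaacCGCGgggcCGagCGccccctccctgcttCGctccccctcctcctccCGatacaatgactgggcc
Eif4g3, chr4:137993205-137993454, plus strand: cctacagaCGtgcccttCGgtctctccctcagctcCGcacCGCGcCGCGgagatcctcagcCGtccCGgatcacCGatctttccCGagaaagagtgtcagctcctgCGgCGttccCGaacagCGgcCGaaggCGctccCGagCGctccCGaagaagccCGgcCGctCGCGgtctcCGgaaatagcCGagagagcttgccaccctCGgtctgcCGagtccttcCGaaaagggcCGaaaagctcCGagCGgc
Sox4, chr13:28953700-28953949, minus strand: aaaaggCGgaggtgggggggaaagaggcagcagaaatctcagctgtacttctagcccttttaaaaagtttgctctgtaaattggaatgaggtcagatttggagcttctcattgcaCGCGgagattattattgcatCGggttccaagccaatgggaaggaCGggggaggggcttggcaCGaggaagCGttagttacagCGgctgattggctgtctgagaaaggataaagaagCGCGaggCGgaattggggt
The windows of *Frmd4b* and *Sox4* lay directly before the annotated gene, those of *Adgrl2* and *Eif4g3* inside it, before a later start. They did not share a CG content. The *Eif4g3* window held 32 CG, and 4.59% of all 32817 windows of that length held at least as many. That of *Frmd4b* held 15 (27.3% of windows) and that of *Sox4* 11 (35.5%), while the *Adgrl2* window held 3, which 70.9% of windows reached, against a median of 6. CG reads the same on both strands. Methylation of these bases was not measured on the arrays.

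The 5 genes lie on 5 different chromosomes of GRCm38.p6 and all code for proteins. *Sema6a* is at chr18:47245254-47371200, *Adgrl2* at chr3:148815586-148989096, *Frmd4b* at chr6:97286867-97617657, *Eif4g3* at chr4:137991779-138207086 and *Sox4* at chr13:28948919-28953699.

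The genotype labels were set against the deleted genes. The *Dnmt1* probe set was at 8.41 to 8.71 in the 6 mutant groups and at 9.18 to 9.69 in the 3 wt groups (group means). *Dnmt3a* and *Dnmt3b* were at 7.54 and 7.39 in TKO ESCs, against 9.16 and 9.90 in wt ESCs. The place of their probes relative to the deletions was not looked up. Array medians lay between 5.77 and 5.90. All 3 kinds of ESC carried the ESC markers, whose mean over a list of 10 was 10.6 to 10.8 in *Dnmt1*-/-, 10.7 in TKO and 10.4 to 10.5 in wt ESC arrays.

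In ESCs all 5 genes were lower in the mutants, as the choice required, so these values are a description without a test. *Sema6a* was at 5.88 and 6.07 in *Dnmt1*-/- ESCs and at 5.82 and 5.61 in TKO ESCs, against 8.47 and 7.71 in wt ESCs. *Adgrl2* was at 7.86 and 7.67 in *Dnmt1*-/- and at 7.46 and 7.39 in TKO ESCs, against 9.86 and 8.72 in wt ESCs. These were the largest gaps of the 5, with mean log2 differences of -2.12 and -2.38 for *Sema6a* and of -1.53 and -1.86 for *Adgrl2* (*Dnmt1*-/- minus wt and TKO minus wt). *Frmd4b* was at 5.57 and 5.79 in *Dnmt1*-/- and at 5.84 and 5.67 in TKO ESCs, against 6.95 and 6.68 in wt ESCs. *Eif4g3* was at 7.01 and 6.93 in *Dnmt1*-/- and at 7.08 and 7.18 in TKO ESCs, against 8.02 and 7.98 in wt ESCs. For both, the mutant means lay about 1 log2 unit under wt (-1.13 and -1.06 for *Frmd4b*, -1.03 and -0.87 for *Eif4g3*). *Sox4* was at 7.35 and 7.26 in *Dnmt1*-/- and at 6.76 and 7.13 in TKO ESCs, against 8.08 and 7.82 in wt ESCs. Its differences were -0.65 for *Dnmt1*-/- and -1.005 for TKO ESCs. Both wt arrays stood above all 4 mutant arrays in 5 of 5 genes. The choice of the genes favoured this, and how many of all probe sets do so was not counted.

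**Figure D1:**
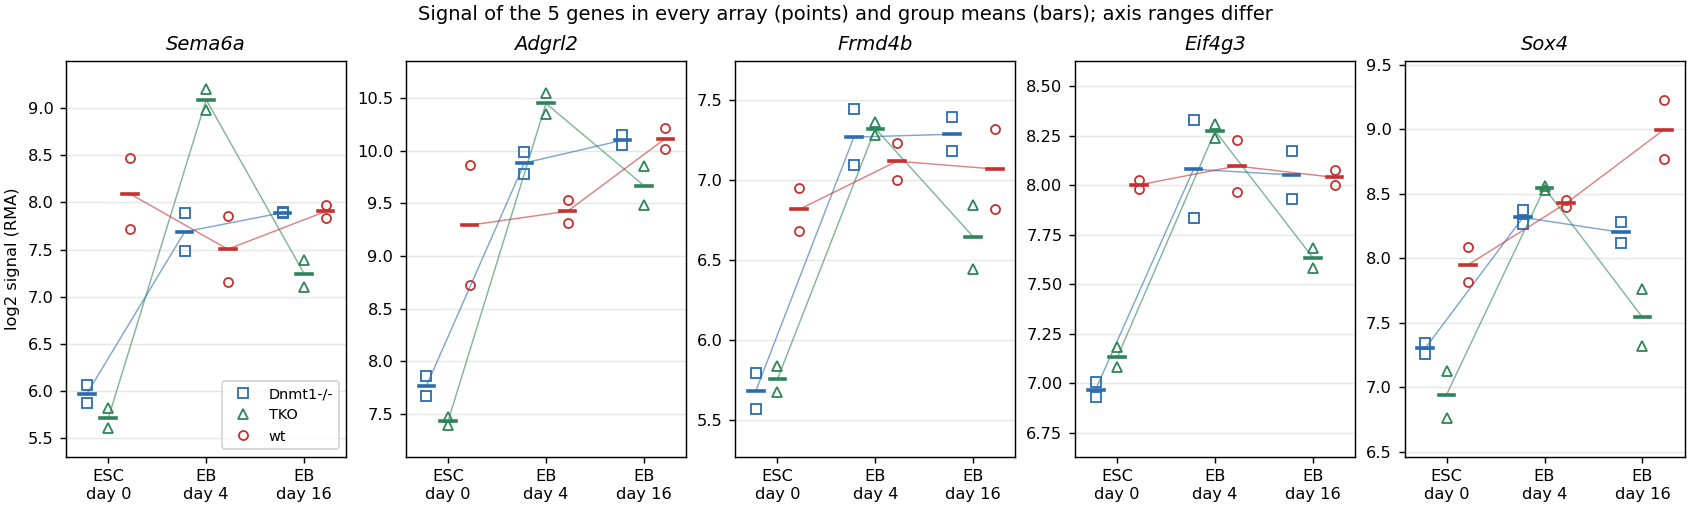
Log2 signal of the lead probe set of each of the 5 genes on all 18 arrays, one panel per gene. Points are arrays and dashes the means of the 2 arrays of a group. In day 0 ESCs the 4 mutant points of each panel lie under both wt points, and in TKO EBs the day 16 points lie under the day 4 points.

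A pair of wt ESC arrays carried this contrast, and they did not agree for every gene. Replicate 1 was 1.14 above replicate 2 for *Adgrl2* and 0.75 above it for *Sema6a*, against 0.27 for *Frmd4b*, 0.05 for *Eif4g3* and 0.27 for *Sox4*. Without wt replicate 1 the *Adgrl2* difference was -0.96 in *Dnmt1*-/- and -1.29 in TKO ESCs. The mean of 14 fibroblast and stroma markers moved with the contrast. It was 6.30 to 6.45 in *Dnmt1*-/- and 6.14 to 6.21 in TKO ESC arrays, against 7.24 in wt replicate 1 and 6.80 in wt replicate 2, with *Lum* the dimmest of the 14 at 3.31 in wt. The mean of 11 formative and primed epiblast markers, which include *Dnmt3a* and *Dnmt3b*, was 8.08 to 8.12 in *Dnmt1*-/- and 7.44 in TKO ESC arrays, against 8.43 to 8.73 in wt. The part of either in the signal of the 5 genes was not tested. Read by the lines used for EBs below, 4 of the 5 genes passed as lower in *Dnmt1*-/- ESCs, where 0.0169% of all probe sets did, and 3 of 5 in TKO ESCs, where 0.0901% did. Nothing is read from those counts, since that contrast chose the genes.

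In EBs the mutant signal of all 5 genes was above that of mutant ESCs on the mean. *Sema6a* in TKO EBs was 3.37 above TKO ESCs at day 4, and *Adgrl2* 3.02 above. Over the 5 genes, the day 4 EB mean exceeded the ESC mean by 1.01 to 2.12 in *Dnmt1*-/- (median 1.58) and by 1.14 to 3.37 in TKO (median 1.60), against -0.59 to 0.48 in wt (median 0.13). These differences share the ESC arrays that chose the genes and carry no test. The EB arrays took no part in the choice by day 0 signal, so the comparisons from here on were tested with limma across all probe sets. The members and lists were, however, chosen with earlier results of these data known. A gene counts as higher or lower only with a false discovery rate under 0.05 and a log2 difference of at least 1.

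At day 4 *Sema6a* was higher in TKO EBs than in wt EBs. It reached 9.20 and 8.98 in TKO EBs, with 7.89 and 7.49 in *Dnmt1*-/- EBs and 7.15 and 7.86 in wt EBs. Both TKO arrays stood above every other array of the series. The log2 difference from wt was 1.58 (SE 0.26, 95% interval 1.01 to 2.15, adjusted p = 0.00323, limma), a 2.996-fold difference, and that from *Dnmt1*-/- EBs was 1.40 (SE 0.26, 0.83 to 1.97, adjusted p = 0.0235). This comparison of TKO with *Dnmt1*-/- lost its call when any one of *Dnmt1*-/- replicate 2, TKO replicate 1 or TKO replicate 2 was left out. *Sema6a* was thus 1 of 5 members higher in TKO than in wt EBs, where 2.11% of all probe sets were higher, and 1 of 5 higher than in *Dnmt1*-/- EBs, where 0.549% were.

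*Adgrl2* came next. Its lead probe set was at 10.55 and 10.35 in TKO EBs and at 9.99 and 9.78 in *Dnmt1*-/- EBs, against 9.31 and 9.54 in wt EBs. In that probe set the 3 groups did not overlap. Its difference between TKO and wt of 1.03 (SE 0.28, 0.42 to 1.63) missed the line at an adjusted p of 0.0535 in limma, and it passed under 5 of the alternative settings. *Frmd4b* (7.36 and 7.28 in TKO EBs, 7.44 and 7.09 in *Dnmt1*-/- EBs, 7.001 and 7.23 in wt EBs) and *Eif4g3* (8.31 and 8.24 in TKO, 7.84 and 8.33 in *Dnmt1*-/-, 7.97 and 8.23 in wt) differed from wt by 0.20 and 0.18 in TKO EBs. The 95% interval of TKO minus wt ran from -0.24 to 0.65 for *Frmd4b* and from -0.18 to 0.53 for *Eif4g3*. *Sox4* was at 8.56 and 8.53 in TKO and 8.37 and 8.26 in *Dnmt1*-/-, against 8.40 and 8.45 in wt EBs (TKO minus wt 0.12, -0.30 to 0.53). The median of the 5 differences was 0.20, beside -0.05 over all probe sets.

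Between *Dnmt1*-/- and wt EBs at day 4, 0 of 5 genes passed the limma lines, where 0.738% of all probe sets were called in either direction. An unadjusted p under 0.05 was reached by 0 of 5, beside 5.83% of all probe sets. The differences ran from -0.11 for *Sox4* to 0.46 for *Adgrl2*. Their intervals allowed up to 1.06 for *Adgrl2* and 0.75 for *Sema6a*, and ran from -0.37 to 0.34 for *Eif4g3*. The ESC markers moved with genotype at this day. Their mean was 9.59 to 9.99 in TKO EB arrays (8 of 10 higher than wt) and 7.54 to 8.82 in *Dnmt1*-/- EB arrays (0 of 10 called), against 7.30 to 7.31 in wt EB arrays. The median ESC marker difference between *Dnmt1*-/- and wt EBs was 0.95, beside -0.05 over all probe sets. In limma 6 of 10 had an unadjusted p under 0.05 there, beside 5.83% of all probe sets. Of the other marker lists, 5 of 10 primitive and visceral endoderm markers were lower and 1 higher in TKO than in wt EBs (list mean 6.54 to 6.96 in TKO, 7.16 to 7.57 in *Dnmt1*-/- and 7.32 to 7.42 in wt EB arrays), and 3 of 11 epiblast markers were higher and 1 lower (list mean 8.84 to 9.07 in TKO, 8.54 to 9.06 in *Dnmt1*-/- and 8.496 to 8.94 in wt EB arrays). The median difference of the 11 epiblast markers between TKO and wt was -0.42, beside -0.05 over all probe sets, so most of them were lower in TKO EBs. Those 11 include *Dnmt3a* and *Dnmt3b*, which TKO cells lack, and no median without these genes was taken. Of 9 neural markers, 1 was higher and 0 lower in TKO than in wt EBs (list median 0.32). The neural list mean was 6.24 to 6.44 in TKO, 5.85 to 5.95 in *Dnmt1*-/- and 5.79 to 5.82 in wt EB arrays. Lower in TKO were 2 of 9 trophoblast, 1 of 8 mesoderm and 1 of 14 stroma markers, with 0 higher in each list. Of all probe sets, 2.11% were called higher and 0.805% lower in TKO than in wt EBs. The part of these lists in the *Sema6a* signal was not tested.

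At day 16 *Sox4* was the gene that differed. It was at 7.76 and 7.32 in TKO EBs and at 8.28 and 8.12 in *Dnmt1*-/- EBs, against 9.23 and 8.77 in wt EBs, so that the 3 groups did not overlap. TKO EBs were lower than wt EBs by a log2 difference of -1.45 (SE 0.19, -1.87 to -1.04, adjusted p = 0.000252, limma), a 2.74-fold difference. *Sox4* was 1 of 5 members lower in TKO EBs, where 3.43% of all probe sets were lower. In *Dnmt1*-/- EBs its difference from wt of -0.80 (SE 0.19, -1.21 to -0.38) had an adjusted p of 0.0290 but stayed under the 2-fold line. It passed that line when wt replicate 2 was left out (-1.03, adjusted p = 0.0214).

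The other 4 genes were below wt in TKO EBs without passing the test. *Sema6a* was at 7.39 and 7.10 in TKO and at 7.90 and 7.89 in *Dnmt1*-/- EBs, against 7.84 and 7.97 in wt EBs. Its difference between TKO and wt was -0.66 (-1.23 to -0.09, adjusted p = 0.136). Those of *Adgrl2*, *Frmd4b* and *Eif4g3* were -0.45, -0.42 and -0.41 (adjusted p = 0.388, 0.234 and 0.139, limma). *Adgrl2* was at 9.86 and 9.48 in TKO and 10.05 and 10.15 in *Dnmt1*-/- EBs, against 10.22 and 10.01 in wt EBs. *Eif4g3* (7.68 and 7.58 in TKO, 7.93 and 8.18 in *Dnmt1*-/-, 8.001 and 8.08 in wt) did not overlap between TKO and the other genotypes, whereas *Frmd4b* (6.85 and 6.44 in TKO, 7.18 and 7.39 in *Dnmt1*-/-, 7.32 and 6.82 in wt) did overlap with wt. The median difference of the 5 from wt was -0.45, beside 0.05 over all probe sets.

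*Dnmt1*-/- EBs at day 16 were close to wt for the 4 genes other than *Sox4*, with differences of -0.01 for *Sema6a*, -0.02 for *Adgrl2*, 0.22 for *Frmd4b* and 0.01 for *Eif4g3*. The intervals reached -0.58 and 0.56 for *Sema6a*, -0.62 and 0.59 for *Adgrl2*, -0.23 and 0.66 for *Frmd4b* and -0.34 and 0.37 for *Eif4g3*. In this comparison 0 of 5 genes were called by limma, where 2.89% of all probe sets were called in either direction, and 1 of 5, *Sox4*, had an unadjusted p under 0.05, as 16.4% of all probe sets did. Set directly against *Dnmt1*-/- EBs, TKO EBs were lower by 0.42 to 0.66 in all 5 genes, and 0 of 5 passed the limma lines, where 1.07% of all probe sets were called in either direction. An unadjusted p under 0.05 was reached by 4 of 5, and by 13.8% of all probe sets. The largest of these was *Sox4* at -0.66 (adjusted p = 0.116).

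Cell type markers moved with the day 16 comparison too. The mean of the 14 stroma markers was 6.87 to 7.53 in TKO EB arrays (9 of 14 lower than wt) and 8.63 to 9.03 in *Dnmt1*-/- EB arrays (6 of 14 lower), against 10.13 to 10.17 in wt EB arrays. ESC markers went the other way, with a mean of 10.09 to 10.12 in TKO (9 of 10 higher) and 8.92 to 9.15 in *Dnmt1*-/- (5 of 10 higher), against 7.26 to 7.67 in wt EB arrays. Of 10 endoderm markers, 4 were lower and 0 higher in TKO than in wt EBs (list median -1.02, beside 0.05 over all probe sets). Of all probe sets, 3.43% were lower and 2.4% higher in TKO EBs, and 1.36% lower and 1.53% higher in *Dnmt1*-/- EBs. The part of these markers in the lower *Sox4* signal was not tested.

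The change between the EB stages differed between genotypes. In TKO EBs *Sema6a* fell, with 7.39 and 7.10 at day 16 against 9.20 and 8.98 at day 4, a log2 difference of -1.84 (SE 0.26, -2.41 to -1.27, adjusted p = 0.00358, limma). *Sox4* fell by 1.002 (SE 0.19, interval -1.42 to -0.59, adjusted p = 0.0166), just past the 2-fold line. These were 2 of 5 members lower at day 16 in TKO EBs, where 0.617% of all probe sets were. *Adgrl2* differed by -0.78 (adjusted p = 0.193), *Frmd4b* by -0.68 (adjusted p = 0.117) and *Eif4g3* by -0.64 (adjusted p = 0.0619), none past the lines. All 5 of 5 had an unadjusted p under 0.05 in limma, as 14.9% of all probe sets did. With TKO day 4 replicate 1 left out, neither *Sema6a* (-1.73, adjusted p = 0.0562) nor *Sox4* (-0.99) passed, and *Sox4* alone lost its call without TKO day 4 replicate 2 (-1.02) or TKO day 16 replicate 2 (-0.78).

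In *Dnmt1*-/- EBs the 5 genes differed by -0.12 to 0.22 between day 16 and day 4, and 0 of 5 were called by limma, where 2.7% of all probe sets were called in either direction, or had an unadjusted p under 0.05, as 16.9% of all probe sets did. In wt EBs they differed by -0.06 to 0.69, with 0 of 5 called by limma, where 5.87% of all probe sets were called in either direction. An unadjusted p under 0.05 was reached by 2 of 5, and by 24.8% of all probe sets. The 2 were *Adgrl2* (0.69, adjusted p = 0.136) and *Sox4* (0.57, adjusted p = 0.0694), both higher at day 16 on the mean.

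The difference of these changes was tested as a contrast of its own. The change of *Sema6a* in TKO EBs lay 2.24 under that in wt EBs (log2 difference -2.24, SE 0.37, -3.05 to -1.44, adjusted p = 0.00529, limma), and that of *Sox4* lay 1.57 under it (-1.57, SE 0.27, -2.16 to -0.99, adjusted p = 0.00651). These 2 of 5 members passed, where 2.24% of all probe sets did in that direction. *Adgrl2* had a difference of -1.47 (SE 0.39, adjusted p = 0.0642), *Frmd4b* one of -0.63 (adjusted p = 0.347) and *Eif4g3* one of -0.58 (adjusted p = 0.244). In limma 4 of 5 had an unadjusted p under 0.05, beside 14.5% of all probe sets. The highest group of *Sema6a* in this contrast was TKO at day 4, and that of *Sox4* was wt at day 16. For *Dnmt1*-/- against wt, 0 of 5 changes differed past the limma lines (0.884% of all probe sets called in either direction). At an unadjusted p under 0.05, which 8.35% of all probe sets had, there was 1 of 5, *Sox4* at -0.69 (SE 0.27, adjusted p = 0.456).

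Marker lists moved with these contrasts as well. In the difference of changes, TKO minus wt, 6 of 14 stroma markers were lower (list median -2.25, beside 0.09 over all probe sets), and 3 of 9 trophoblast markers were higher and 1 lower (median 1.24). Of all probe sets, 0.659% were higher and 2.24% lower there. Between day 16 and day 4 in TKO EBs, 5 of 9 trophoblast markers were higher and 1 lower, with a list mean of 7.01 to 7.26 at day 16 against 6.25 at day 4. Of 10 endoderm markers, 4 were higher and 0 lower (8.25 to 8.59 against 6.54 to 6.96). The epiblast list went the other way, with 2 of 11 lower and 1 higher (8.43 to 8.44 against 8.84 to 9.07). Its median was -0.83, beside 0.01 over all probe sets. Of 9 neural markers, 1 was lower and 0 higher (median -0.36). In that comparison 0.794% of all probe sets were higher and 0.617% lower. The part of these lists in the *Sema6a* and *Sox4* changes was not tested.

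**Figure D2:**
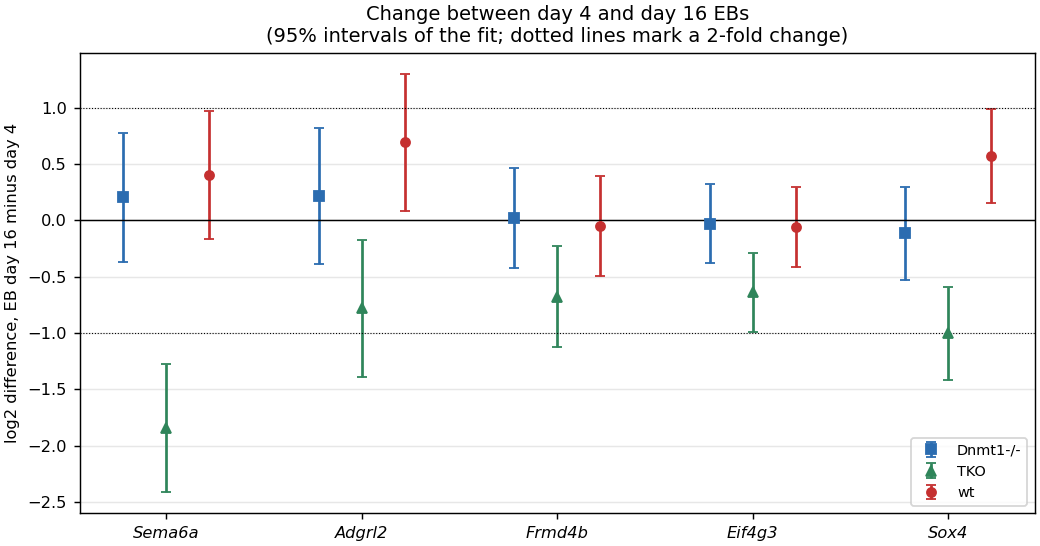
Log2 difference of day 16 from day 4 EBs in TKO, *Dnmt1*-/- and wt for each gene, with 95% intervals. The TKO values run from -1.84 for *Sema6a* to -0.64 for *Eif4g3* and lie under those of *Dnmt1*-/- and wt in every gene.

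Ordered by mean level over the 9 groups, 4 of the 5 genes had TKO EBs of day 4 on top and all 5 had mutant ESCs at the bottom. The genes were chosen for low signal in mutant ESCs, so their place at the bottom is no separate result. How many of all probe sets share either place was not counted, and the order is a description. For *Sema6a* TKO day 4 EBs (9.09) stood apart from a run of 6 groups between 8.09 and 7.25 whose neighbours overlapped, and the ESCs of *Dnmt1*-/- (5.97) and TKO (5.71) stood apart below. *Adgrl2* had TKO day 4 EBs at 10.45, the other EB groups and wt ESCs between 10.12 and 9.29, and mutant ESCs at 7.77 and 7.43. In *Frmd4b* the upper 7 groups, from 7.32 in TKO day 4 EBs to 6.64 in TKO day 16 EBs, each overlapped with the next, and the ESCs of TKO (5.76) and *Dnmt1*-/- (5.68) overlapped with each other.

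*Eif4g3* and *Sox4* gave a finer order. For *Eif4g3*, 5 groups between 8.10 and 8.002 overlapped in turn. TKO day 4 EBs (8.27) had the highest mean, but *Dnmt1*-/- replicate 2 of day 4 (8.33) lay above both of their arrays, and TKO day 16 EBs (7.63), TKO ESCs (7.13) and *Dnmt1*-/- ESCs (6.97) each apart below. *Sox4* was highest in wt EBs of day 16 (8.996), the exception to the order on top, followed by TKO (8.54), wt (8.43) and *Dnmt1*-/- EBs (8.32) of day 4. Its *Dnmt1*-/- day 16 EBs (8.20) overlapped with the *Dnmt1*-/- day 4 EBs, and its TKO day 16 EBs (7.54) overlapped with *Dnmt1*-/- ESCs (7.30), above TKO ESCs (6.95) and under wt ESCs (7.95).

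The 8 probe sets of *Adgrl2* shared a direction in ESCs and gave a graded picture in EBs. By the lines used for EBs, 1 of 8, the lead, passed as lower in *Dnmt1*-/- ESCs (0.0169% of all probe sets). In TKO ESCs 5 of 8 did (0.0901% of all probe sets), and these counts are a description, as above. In ESCs all 8 were lower in mutants, by -1.68 to -0.94 in *Dnmt1*-/- and by -2.26 to -1.04 in TKO, and wt replicate 1 exceeded wt replicate 2 by 0.96 to 1.42 in each of them. At day 4 TKO minus wt ran from 0.22 to 1.03, with 0 of 8 called. The genotypes were not apart at day 4 in every probe set. In 10502772 the TKO arrays (7.139 and 7.145) lay between those of *Dnmt1*-/- EBs (6.90 and 7.53). Between day 16 and day 4 in TKO EBs the 8 probe sets differed by -1.64 to -0.32. Of the 8, 1, the probe set 10502770, passed as lower (-1.64, SE 0.37, adjusted p = 0.0388, limma). The difference of that change from wt was between -1.83 and -0.83 with 0 of 8 called. Their 28 pairs correlated at Pearson r of 0.90 to 0.99 over the 18 arrays and of 0.38 to 0.98 over the 12 EB arrays. Probe sets of a gene share their RNA and are not replicates.

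**Figure D3:**
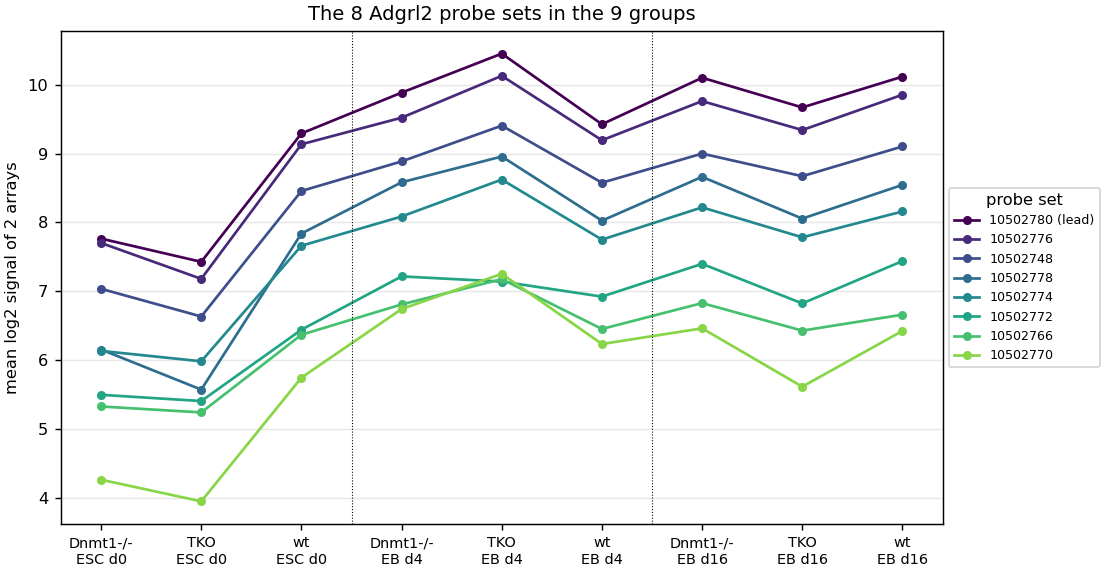
Group means of log2 signal for the 8 probe sets of *Adgrl2* in the 9 groups. Every line is lower in mutant ESCs than in wt ESCs, and the lines differ in level by probe set, which is not comparable between them.

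The relatives and partners of the members were counted from lists that leave the member out. Among 30 other semaphorins, plexins and neuropilins, 3 were higher and 3 lower in TKO than in wt EBs at day 4, where 2.11% of all probe sets were higher and 0.805% lower. *Sema6d*, a class 6 semaphorin like *Sema6a*, was lower there, with 5.37 and 5.82 in TKO EBs against 6.32 and 6.995 in wt EBs (-1.06, SE 0.25, adjusted p = 0.0274, limma), in the direction opposite to *Sema6a*. So was *Plxna4*, a plexin that binds class 6 semaphorins (-1.09, SE 0.23, adjusted p = 0.0128), and the neuropilin *Nrp1*, a co-receptor of secreted semaphorins (-3.77, SE 0.45, adjusted p = 0.000316). The 3 higher genes were *Sema3e* (1.54), *Sema4d* (1.30) and *Plxnc1* (1.21). At day 16, where 2.4% of all probe sets were higher and 3.43% lower, 0 of 30 were higher and 7 lower in TKO EBs, led by *Sema3c* (-4.12, adjusted p = 5.74e-06), with a list median of -0.54 beside 0.05 over all probe sets. In *Dnmt1*-/- EBs 3 of 30 were lower than in wt at day 16, beside 1.36% of all probe sets, and 0 called by limma at day 4 (4 of 30 at an unadjusted p under 0.05, beside 5.83% of all probe sets).

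Of the other latrophilins and their ligands, 16 were measured. At day 4, 2 were lower in TKO than in wt EBs (0.805% of all probe sets), the netrin receptor *Unc5c* (-3.19), which also binds FLRT proteins, and the ligand *Flrt3* (-1.34). At day 16, 6 of 16 were lower (3.43% of all probe sets) and 0 higher, among them the ligands *Flrt2* (-2.32, SE 0.28, adjusted p = 0.000156, limma) and *Tenm3* (-1.29) and the receptor *Adgrl3*, the relative of *Adgrl2* (-1.33, SE 0.19, adjusted p = 0.000463). The list median was -0.19. *Flrt2* was at 5.05 and 5.40 in TKO and 6.94 and 6.29 in *Dnmt1*-/- EBs, against 7.98 and 7.10 in wt EBs of day 16. *Adgrl3* was dim throughout and was highest in wt EBs of day 16 (5.51 and 5.12). In ESCs its means were 4.59, 4.56 and 4.59 in *Dnmt1*-/-, TKO and wt, without the gap of *Adgrl2*.

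The partners of *Frmd4b* and *Eif4g3* gave few calls. Of 18 FERM, cytohesin and Par polarity genes 1 was higher in TKO EBs than in wt EBs at day 4, *Frmd5* (1.13, SE 0.18, adjusted p = 0.00238, limma), and 0 of 18 were called at day 16 (8 of 18 at an unadjusted p under 0.05, beside 24.1% of all probe sets). The paralogue *Frmd4a* had means of 6.41, 6.70 and 6.81 in *Dnmt1*-/-, TKO and wt ESCs. Of 19 eIF4F subunits and regulators 0 were called by limma between TKO and wt EBs at either day, with 4 of 19 at an unadjusted p under 0.05 at day 4, beside 15.4% of all probe sets, and 4 of 19 at day 16, beside 24.1%.

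Among 19 other Sox genes, 2 were higher and 1 lower in TKO than in wt EBs at day 4, and 2 higher and 3 lower at day 16, against the same shares of all probe sets as above. The higher ones included *Sox2*, a core pluripotency factor (2.77 at day 4 and 1.80 at day 16). *Sox11*, the SoxC relative of *Sox4*, was among the lower at day 16 (-1.40, SE 0.25, adjusted p = 0.00258, limma), with 7.64 and 6.93 in TKO EBs and 7.96 and 8.46 in *Dnmt1*-/- EBs, against 8.92 and 8.45 in wt EBs. In ESCs it was at 7.01 and 6.98 in *Dnmt1*-/- and at 6.57 and 6.82 in TKO, against 7.68 and 7.55 in wt, so that its mutant arrays lay below wt as those of *Sox4* did.

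**Figure D4:**
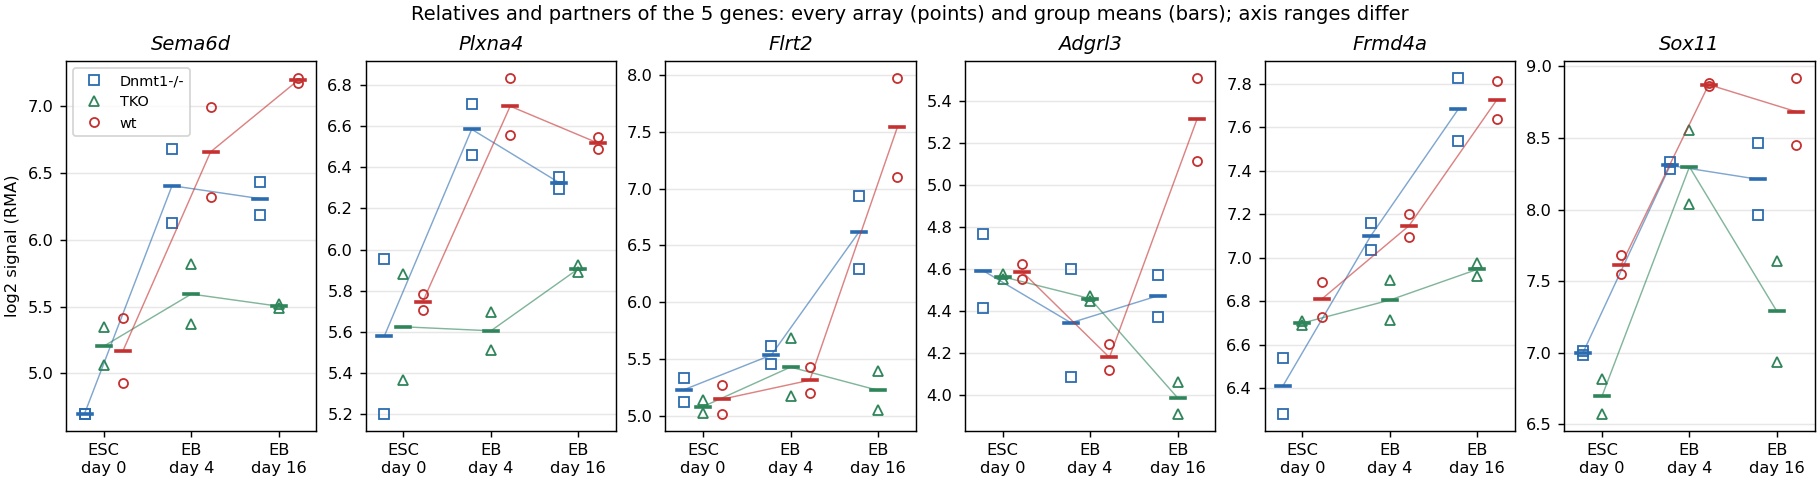
Log2 signal of 6 relatives or partners of the members (*Sema6d*, *Plxna4*, *Flrt2*, *Adgrl3*, *Frmd4a* and *Sox11*) on all 18 arrays. *Sox11* in ESCs is lower in the 4 mutant arrays (6.57 to 7.01) than in wt (7.55 and 7.68), and *Adgrl3* has group means of 4.56 to 4.59 in all 3 kinds of ESC.

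The genes whose signal ran most like each member were taken as the 3 with the highest Pearson r over the 18 arrays, each by its most alike probe set. *Sema6a* was followed by *Adgrl2* (r = 0.933, and 0.903 over the 12 EB arrays alone), *Lrrc8c* (0.906 and 0.702), a subunit of the volume-regulated anion channel, and *Galnt3* (0.896 and 0.746), a glycosyltransferase. For *Adgrl2* they were *Patj* (0.955 and 0.558), a polarity scaffold, *Lrrc8c* (0.939 and 0.495) and *Frmd4b* (0.934 and 0.580). Those of *Frmd4b* were *Cpe* (0.955 and 0.908), a carboxypeptidase, *Adgrl2* (0.949 and 0.798) and the kinase *Cdk14* (0.942 and 0.843). *Eif4g3* ran with *Frmd4b* (0.917 and 0.599), *Adgrl2* (0.915 and 0.823) and *Lrrc8c* (0.914 and 0.778). As a match, *Adgrl2* had 8 probe sets to be picked from. By its lead probe set it had 0.916 and 0.845 with *Sema6a*, and 0.934 and 0.580 with *Frmd4b*. With *Eif4g3* the lead gave 0.877 and 0.418, the lowest r over EB arrays among the pairs of members. *Sox4* had none of the other members among its 3, which were *Sh3bgrl* (0.954 and 0.921), the junction protein *Cxadr* (0.944 and 0.868) and the transcription factor *Tcf4* (0.941 and 0.877). Between the lead probe sets of the 5 members the 10 pairs had an r of 0.789 to 0.934 over all arrays and of 0.418 to 0.845 over EB arrays. The ESC arrays, on which all members were chosen to be low in mutants, enter the first of these values, and arrays of a group are not independent points.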

How the data were processed

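Total RNA of the 18 cultures was labelled with a whole-transcript kit and hybridised to Affymetrix Mouse Gene 1.0 ST arrays. For each probe set the authors deposited a log2 value from RMA, which corrects background, equalises the arrays by quantiles and sums up a set's probes. RMA is named in the submitters' processing notes, with its version not given in the sources used here. RMA makes array distributions alike, so a shift of most genes would not be seen, and probe sets differ in affinity, so levels are compared within a probe set only. All 35512 probe sets were kept, and 21789 carry 1 gene symbol, 1621 several and 12102 none. Signals ran from 1.21 to 14.01 with 0 missing values, and 2 arrays a group limit the precision.

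The R 4.3.3 package limma 3.58.1 (lmFit, contrasts.fit, eBayes) fitted a mean for each of the 9 groups (9 residual and 3.32 prior degrees of freedom). Every adjusted p is Benjamini and Hochberg's over all probe sets of 1 comparison, and SE and 95% intervals are those of the fit (12.32 degrees of freedom). A call needs a false discovery rate under 0.05 and an absolute log2 difference of at least 1, the lines of the study's methods. The fit was tested on simulated data. Contrasts of ESC arrays, and of EBs with ESCs, came from the same fit but are given without a p, and calls in ESCs only as a description, since ESC values chose the genes. Of several probe sets of a gene, that of highest mean signal was used. The genes named are the members, fixed relatives, up to 4 called genes of a list and comparison, and the 3 genes most like each member. *Flrt3* and *Tenm3* are fixed relatives. *Tamalin* of the polarity list and *Eif4g1*, *Eif4ebp3* and *Pabpc4* of the eIF4F list had no probe set of their own. The members and lists were chosen with earlier results of these data known. Alternatives were other normalizations, a filter on dim probe sets, EB arrays only, another variance model, a replicate block, 1 false discovery rate over all 11 comparisons, and leaving out each array.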

Additional observations from a re-analysis of the deposited data

Results flagged for a closer look

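A pair of results differed between genotypes by a test of the difference itself. The log2 change between day 4 and day 16 in TKO EBs, minus that in wt EBs, was -2.24 for *Sema6a* (adjusted p = 0.00529, limma) and -1.57 for *Sox4* (adjusted p = 0.00651). For *Sema6a* the TKO arrays stood at 7.39 and 7.10 at day 16, against 9.20 and 8.98 at day 4, while the wt arrays overlapped between the days. For *Sox4* both TKO arrays of day 16 lay under both of day 4, and both wt arrays of day 16 lay above both of day 4. No group held enough arrays to look for a single outlying one.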

How the results depend on the processing

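Of 645 values of single genes recomputed, 601 counted as kept. In the tested EB comparisons this meant the same direction and the same side of the lines. Differences from wt in ESCs counted as kept if they moved by less than the SD of the groups compared. Leaving out 1 of the 2 arrays of a group cannot move a difference by more than that SD. Those ESC values were therefore bound to count as kept, and nothing is read from that. Some ESC differences crossed an absolute log2 difference of 1 with 1 array left out. *Adgrl2* in *Dnmt1*-/- ESCs went from -1.53 to as little as -0.96, and *Sox4* in TKO ESCs from -1.005 to -0.82. At day 4 the count of members higher in TKO than in wt EBs was 2, not 1, with further quantile normalization, without the dimmest 30% of probe sets, with EB arrays only, with trend and robust variance, and with the replicate block. *Adgrl2* was the added gene (adjusted p = 0.0282, 0.0377, 0.0130, 0.0479 and 0.0248 in that order). For TKO against *Dnmt1*-/- EBs it was 0 with EB arrays only (*Sema6a* adjusted p = 0.0538) and 0 to 1 with single arrays left out. Leaving out arrays gave 0 to 1 for *Dnmt1*-/- against wt EBs at day 16 and 0 to 2 for day 16 against day 4 in TKO EBs, where quantile normalization gave 1 (*Sox4* -0.94). Member counts of the other comparisons did not change under the settings run, apart from *Adgrl2* passing in the difference of changes, TKO minus wt, with quantile normalization (-1.52, adjusted p = 0.0359), EB arrays only (0.0186) and the replicate block (0.0306), a count of 3 against 2.

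Signs turned only in values near 0. *Eif4g3* was 0.020 at day 4 and -0.050 at day 16 in *Dnmt1*-/- against wt EBs, and 0.04 in wt EBs at day 16 against day 4, with quantile normalization. With array medians subtracted *Sema6a* and *Adgrl2* were 0.023 and 0.020 in *Dnmt1*-/- against wt EBs at day 16. With single arrays left out, *Dnmt1*-/- against wt EBs at day 4 ran from -0.17 to 0.53 for *Sema6a*, -0.025 to 0.33 for *Frmd4b* and -0.26 to 0.23 for *Eif4g3*, and at day 16 from -0.082 to 0.056 for *Sema6a*, -0.12 to 0.085 for *Adgrl2*, -0.035 to 0.47 for *Frmd4b* and -0.11 to 0.14 for *Eif4g3*. TKO against *Dnmt1*-/- EBs at day 4 ran from -0.12 to 0.23 for *Frmd4b* and -0.053 to 0.44 for *Eif4g3*. Day 16 against day 4 ran from -0.16 to 0.19 and -0.27 to 0.22 for these genes in *Dnmt1*-/- EBs, and from -0.30 to 0.20 and -0.19 to 0.074 in wt EBs. The causes were not tested.

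Replicate numbers are shared by the labels but not said to pair cultures. The differences between replicates 1 and 2 correlated at 0.108 to 0.450 across compared groups, and at 0.0804 for day 16 against day 4 in TKO EBs. The replicate block changed no member's call other than those of *Adgrl2* above. Over all probe sets, EB arrays only gave 102 calls against 301 for TKO against *Dnmt1*-/- EBs at day 4 (52.9% of them higher, against 64.8%), 222 against 380 at day 16, and 150 against 314 for the difference of changes, *Dnmt1*-/- minus wt, which 1 false discovery rate over all comparisons put at 494. Leaving out single arrays gave 38 to 530 calls against the 301, 101 to 407 against the 380, 142 to 347 against the 314, 148 to 411 against 501 and 565 to 929 against 959 for day 16 against day 4 in TKO and in *Dnmt1*-/- EBs, and 612 to 1085 against 1028 for the difference of changes, TKO minus wt.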
